A study of Mus musculus with 12 samples.

Results

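The genes described here were 10 genes of the integrated stress response and the unfolded protein response, Atf4, Atf3, Ddit3, Trib3, Asns, Chac1, Psat1, Phgdh, Hspa5 and Herpud1, chosen by symbol from the 24421 genes of the count tables. The choice was made with earlier results of these data known. All 10 genes passed the filter on low counts, which kept 11638 genes. They were measured by RNA sequencing in B16F10 cells, a mouse melanoma cell line, in 12 libraries of 4 groups with 3 replicates each. The groups were a DMSO vehicle control, DAC (5-aza-2′-deoxycytidine, an inhibitor of DNA methyltransferases) at 25 nM for 72 h, SFN (sulforaphane, a plant isothiocyanate) for 48 h, and DAC+SFN, in which SFN was added for the last 48 h of the 72 h of DAC. The study's methods and the protocol of the combination give SFN at 5 µM, while the protocol in the labels gives 5 nM for SFN alone. If the labels were right, the SFN dose would differ between SFN and DAC+SFN. All libraries came from the same cell line, and the study's methods describe the replicates as independent biological repeats of the treatment.

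ATF4 is a transcription factor that is translated more when kinases that sense stress, such as PERK in the endoplasmic reticulum (ER) and GCN2 in amino acid starvation, phosphorylate eIF2α. It turns on genes for amino acid synthesis and uptake and genes for stress regulators such as ATF3, CHOP (the product of Ddit3) and TRIB3. The unfolded protein response also runs through the sensors IRE1 and ATF6, which raise ER chaperones such as BiP (the product of Hspa5), and in melanoma cells ATF4 is known as a regulator of the response to nutrient shortage. The tests here read mRNA levels only, and neither ATF4 protein nor eIF2α phosphorylation was measured.

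The promoters are printed because both arms of the response act on known sequence elements near the start of their targets. All 10 genes matched a RefSeq promoter entry (GRCm38.p6, the assembly called mm10), of which the 250 bases before the start were searched on both strands for 3 elements. They were the CARE of ATF4 and C/EBP dimers (TGATGNAA), the ER stress element ERSE (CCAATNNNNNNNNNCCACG) and the ER stress element ERSE-II (ATTGGNCCACG). A CARE lay in the windows of 4 genes, Asns, Chac1, Herpud1 and Atf3, where 3.45% of the 32851 RefSeq promoters of the same length held 1. The ERSE lay in the window of Hspa5 (0.113% of all promoters) and ERSE-II in that of Herpud1 (0.0304%). A match describes the letters only. In the 5 windows below, read 5′ to 3′ on the strand of the gene, capitals mark the matched elements, and a CARE on the opposite strand reads TTGCATCA.
Asns: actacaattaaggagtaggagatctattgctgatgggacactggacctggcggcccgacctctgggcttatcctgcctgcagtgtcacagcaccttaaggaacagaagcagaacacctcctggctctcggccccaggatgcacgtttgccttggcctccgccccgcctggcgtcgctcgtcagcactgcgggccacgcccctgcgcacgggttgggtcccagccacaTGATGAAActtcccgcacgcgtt
Chac1: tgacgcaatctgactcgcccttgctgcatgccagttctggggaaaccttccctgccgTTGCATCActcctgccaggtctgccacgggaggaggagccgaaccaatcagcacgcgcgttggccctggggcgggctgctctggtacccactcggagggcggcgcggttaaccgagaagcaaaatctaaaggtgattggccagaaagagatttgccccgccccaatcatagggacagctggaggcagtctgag
Herpud1: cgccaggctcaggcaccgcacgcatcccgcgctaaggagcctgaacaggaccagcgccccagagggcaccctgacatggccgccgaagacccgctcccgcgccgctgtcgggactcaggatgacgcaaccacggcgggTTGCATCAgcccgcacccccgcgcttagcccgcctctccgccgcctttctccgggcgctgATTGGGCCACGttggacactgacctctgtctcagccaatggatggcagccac
Hspa5: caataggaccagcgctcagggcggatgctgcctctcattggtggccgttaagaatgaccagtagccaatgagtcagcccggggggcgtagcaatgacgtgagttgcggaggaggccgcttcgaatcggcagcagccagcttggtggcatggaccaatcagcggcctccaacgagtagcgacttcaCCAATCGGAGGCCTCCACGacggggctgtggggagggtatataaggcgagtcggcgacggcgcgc
Atf3: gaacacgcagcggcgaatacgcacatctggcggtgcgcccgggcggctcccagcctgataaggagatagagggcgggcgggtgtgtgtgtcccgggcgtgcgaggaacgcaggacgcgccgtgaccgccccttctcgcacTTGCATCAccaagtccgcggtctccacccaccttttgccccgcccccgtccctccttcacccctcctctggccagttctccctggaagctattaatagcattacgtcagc
The Asns window was chr6:7693210-7693459 on the minus strand, with the CARE beginning 23 bases before the RefSeq start. The Chac1 window was chr2:119350992-119351241 on the plus strand, with the element beginning 193 bases before the start. The Herpud1 window was chr8:94386179-94386428 on the plus strand, with the CARE at 112 bases and ERSE-II at 52 bases before the start. The Hspa5 window was chr2:34771840-34772089 on the plus strand, with the ERSE at 65 bases before the start. The Atf3 window was chr1:191183334-191183583 on the minus strand, with the CARE at 110 bases before the start. These windows precede the first exon in RefSeq. In GENCODE M21, where some transcripts begin upstream of the RefSeq start, exons of the same gene covered 120 bases of the Hspa5 window, 45 of the Asns window, 13 of the Chac1 window, 7 of the Atf3 window and 0 of the Herpud1 window.

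Total counts lay between 15880957 and 27291436 per library, so 1 CPM (the read count relative to library size, here scaled by TMM) stood for 15.7 to 26.7 reads. All 7 melanocyte lineage markers were expressed in every library, with summed levels of 21417 to 30155 CPM. Of 4 leukocyte markers, Ptprc, Cd3e and Itgam had at most 3 reads in any library. The remaining one, Cd68, rose with SFN (log2 fold change 1.11, adjusted p = 7.29e-04) and with DAC+SFN (1.55, adjusted p = 1.98e-05), and the summed leukocyte level was 2.36 to 4.78 CPM in control, 3.93 to 5.87 with DAC, 6.16 to 9.03 with SFN and 8.31 to 11.2 with DAC+SFN. Neither of 2 endothelial nor any of 3 epithelial markers passed the filter, and Cdh5 had 0 reads. Of 3 fibroblast markers, Dcn had at most 1 read and Col1a1 followed the replicate number, with 61.5 to 90.3 CPM in the 4 libraries of replicate 1, 15.6 to 24.1 in replicate 2 and 245 to 356 in replicate 3. The summed fibroblast level spanned 17.9 to 314 CPM in control, 19.8 to 359 with DAC, 18.1 to 247 with SFN and 25.7 to 247 with DAC+SFN. Pdgfra, with 26 to 65 reads per library, fell by 0.84 on the log2 scale with SFN (adjusted p = 0.0240). The part of these genes in the results below was not tested.

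In control cells the 10 genes differed widely in level per kilobase of exon. Hspa5, the main ER chaperone, stood highest at 530 ± 37.3 CPM per kb (SD, n = 3). Atf4 followed at 298 ± 15.7 CPM per kb and Phgdh, which makes the first step of serine synthesis, at 250 ± 8.63. Asns (asparagine synthetase) stood at 142 ± 12.7 CPM per kb and Psat1, the next enzyme of serine synthesis, at 125 ± 9.76. Herpud1, a membrane protein of ER-associated degradation, at 76.4 ± 9.25 CPM per kb and Ddit3 at 67.6 ± 5.42 overlapped in range. Trib3 (29.8 ± 4.34 CPM per kb) and Chac1, which degrades glutathione (24.8 ± 3.25), overlapped as well. Atf3 was lowest at 5.32 ± 1.77 CPM per kb, and all other neighbours in this order had ranges that did not overlap.

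**Figure D1:**
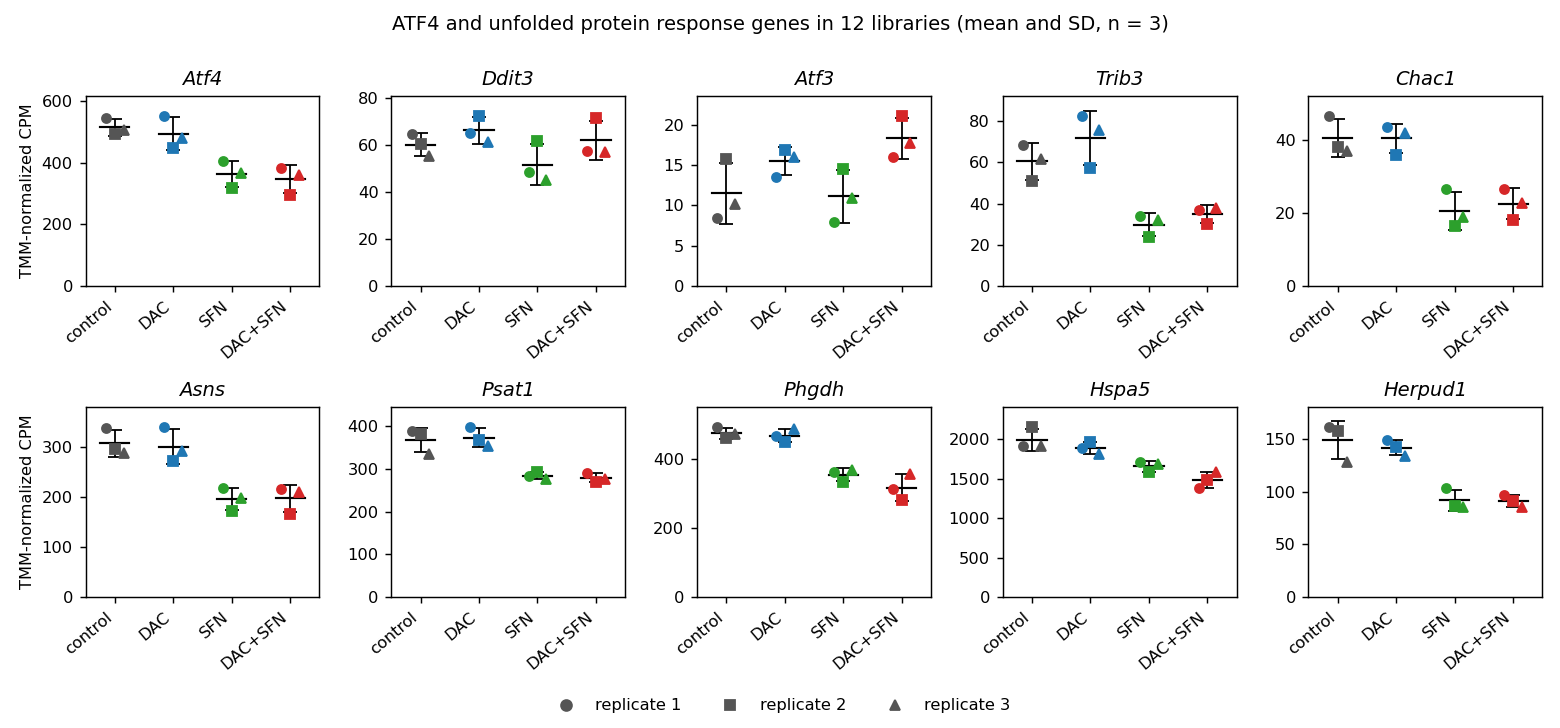
Levels of the 10 genes in TMM-normalized CPM (vertical axes, from 0) in the 4 groups, with 1 point per library, symbols for the replicate number, and bars for the mean and SD of 3 libraries. In 8 panels the SFN and DAC+SFN libraries lie below every control and DAC library, while Ddit3 overlaps between groups and the mean of Atf3 is highest with DAC+SFN.

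With SFN alone, 8 of the 10 genes fell and none rose. The 8 were Atf4, its targets Trib3, Chac1, Asns, Psat1 and Phgdh, and the ER genes Herpud1 and Hspa5. Over all genes tested, 5.65% were lower and 8.27% higher at an adjusted p under 0.05, and the median log2 fold change was -0.47 over the 10 genes against 0.0040 over all genes. The 3 SFN libraries lay outside the range of the 3 control libraries for 8 genes, where 20.8% of all genes had such ranges. Only Trib3 of the 10 fell more than 2-fold in the test, where 1.28% of all genes changed by more than 2-fold in either direction. The counts are of RNA in bulk cultures, in which a smaller share of cells with a transcript and less transcript per cell cannot be told apart.

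Atf4 itself (chr15:80255184-80257541, plus strand) stood at 545, 492 and 507 CPM in control replicates 1, 2 and 3 and at 404, 319 and 365 CPM with SFN. Every SFN library was below every control library. The log2 fold change was -0.51 ± 0.057 (SE), so that the level fell by 29.9% (adjusted p = 4.95e-05, edgeR's quasi-likelihood test, as for all adjusted p-values here).

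Trib3 (chr2:152337422-152344032, minus strand) encodes a pseudokinase that restrains AKT and ATF4 signalling. It stood at 68.6, 51.2 and 61.6 CPM in control and at 33.8, 23.7 and 32.0 CPM with SFN, so that the highest SFN library lay well below the lowest control. Its log2 fold change of -1.03 ± 0.065 (adjusted p = 8.12e-07) had the second lowest p-value of all genes, rank 2 of 11638. Chac1 (chr2:119351229-119354381, plus strand) stood at 46.7, 38.2 and 37.0 CPM in control and at 26.6, 16.3 and 19.0 CPM with SFN. The ranges did not overlap, and the log2 fold change was -0.998 ± 0.096 (adjusted p = 1.69e-05, rank 23).

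The amino acid enzymes fell less steeply. Asns (chr6:7675169-7693254, minus strand) stood at 339, 296 and 288 CPM in control and at 218, 173 and 199 CPM with SFN (log2 fold change -0.65 ± 0.063, adjusted p = 1.78e-05). Both enzymes of serine synthesis fell by a smaller amount. Psat1 (chr19:15904678-15947337, minus strand) stood at 387, 381 and 335 CPM in control and at 283, 292 and 276 CPM with SFN (log2 fold change -0.37 ± 0.055, adjusted p = 4.96e-04). Phgdh (chr3:98313170-98339990, minus strand) stood at 491, 459 and 472 CPM in control and at 361, 334 and 368 CPM with SFN (-0.42 ± 0.059, adjusted p = 3.35e-04). In each of the 3 enzymes every SFN library was below every control library.

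Among the ER genes the change was larger in Herpud1 than in Hspa5. Herpud1 (chr8:94386438-94395377, plus strand) stood at 162, 158 and 128 CPM in control and at 104, 86.6 and 85.5 CPM with SFN. Its log2 fold change was -0.70 ± 0.062 (adjusted p = 8.77e-06, rank 15), and it fell by 38.4%. Hspa5 (chr2:34771970-34777547, plus strand) stood at 1907, 2151 and 1909 CPM in control and at 1710, 1579 and 1688 CPM with SFN. Its ranges did not overlap either, and it fell by 16.5% (log2 fold change -0.26 ± 0.068, adjusted p = 0.0194), the least of the 8. The call on Hspa5 was lost without replicate 2 (adjusted p = 0.241), without replicate 1 (0.0759), and without control 1 (0.0540), control 2 (0.119), SFN 2 (0.156) or SFN 3 (0.0565).

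Ddit3 and Atf3, the stress factors that commonly follow ATF4, did not pass the test with SFN. Ddit3 (chr10:127290774-127296288, plus strand) stood at 64.7, 60.5 and 55.1 CPM in control and at 48.4, 61.6 and 44.9 CPM with SFN. The SFN library of replicate 2 lay within the control range and the others below it, and the log2 fold change was -0.23 ± 0.078 (95% interval -0.39 to -0.062, adjusted p = 0.0642). Without control 2, without SFN 2 and without replicate 2 the fall of Ddit3 passed the test (adjusted p = 0.0215, 0.0467 and 0.0409), as it did without a filter (0.0366) and with only the groups compared in the model (0.0495). Exons of Ddit3 share 68 bases with Mars on the opposite strand, and the strand setting of the counting is not given in the sources used here. Atf3 (chr1:191170296-191218039, minus strand) stood at 8.46, 15.7 and 10.2 CPM in control and at 7.90, 14.5 and 10.9 CPM with SFN. The groups overlapped fully, with a log2 fold change of -0.043 ± 0.13 (95% interval -0.31 to 0.22, adjusted p = 0.863).

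With DAC alone, none of the 10 genes passed the test. At an unadjusted p under 0.05 there were 2, Atf3 and Trib3, and DESeq2 called 0. Over all genes, 0% were called lower, 0.18% higher and 0.0344% with a change above 2-fold, so few genes of any kind passed. The ranges of control and DAC overlapped for all 10, where 8.43% of all genes had ranges that did not. Atf3 stood at 13.5, 16.9 and 16.0 CPM with DAC, higher than control in each replicate number, with a log2 fold change of 0.47 ± 0.12 (95% interval 0.21 to 0.73, adjusted p = 0.160). Trib3 stood at 82.6, 57.2 and 75.8 CPM with DAC (0.24 ± 0.063, adjusted p = 0.156). Both passed when only the control and DAC libraries were fitted (adjusted p = 0.0175 and 0.00555), and Atf3 passed without a filter on low counts (0.0342). For Atf4, at 551, 447 and 481 CPM with DAC, the 95% interval of the log2 fold change was -0.19 to 0.054.

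With DAC+SFN compared to control, 9 of the 10 genes passed the test, 8 lower and Atf3 higher. Over all genes 14.7% were lower, 17% higher and 2.66% changed by more than 2-fold, while 0 of the 10 genes did. The ranges of the 9 did not overlap between the groups, where 29.4% of all genes had such ranges. The median log2 fold change was -0.59 over the 10 genes and 0.0078 over all genes. This comparison shares its control libraries with the comparison of SFN to control.

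Atf4 stood at 382, 295 and 360 CPM with DAC+SFN, below every control library (log2 fold change -0.58 ± 0.057, adjusted p = 7.04e-06). Trib3 stood at 37.0, 30.0 and 37.9 CPM (-0.79 ± 0.065, adjusted p = 2.08e-06) and Chac1 at 26.7, 18.1 and 22.9 CPM (-0.86 ± 0.096, adjusted p = 2.08e-05). The 3 amino acid enzymes were lower than in every control library too. Asns stood at 217, 166 and 210 CPM and fell by 35.9%. Psat1 stood at 291, 270 and 276 CPM and fell by 24.0%, and Phgdh stood at 312, 280 and 357 CPM and fell by 33.5% (adjusted p = 7.23e-06, 1.23e-04 and 9.06e-06). Of the ER genes, Herpud1 stood at 97.1, 91.5 and 85.4 CPM (-0.71 ± 0.062, adjusted p = 2.95e-06) and Hspa5 at 1381, 1486 and 1586 CPM (-0.42 ± 0.068, adjusted p = 3.64e-04).

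Atf3 was the exception in direction. It stood at 16.0, 21.1 and 17.7 CPM with DAC+SFN, above the highest control library of 15.7 CPM, with a log2 fold change of 0.70 ± 0.12 (adjusted p = 6.97e-04). These levels rest on 184 to 440 reads per library in the 2 groups. Ddit3 stood at 57.3, 71.7 and 57.2 CPM, overlapped with control and did not pass (0.039 ± 0.078, 95% interval -0.13 to 0.20, adjusted p = 0.735).

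**Figure D2:**
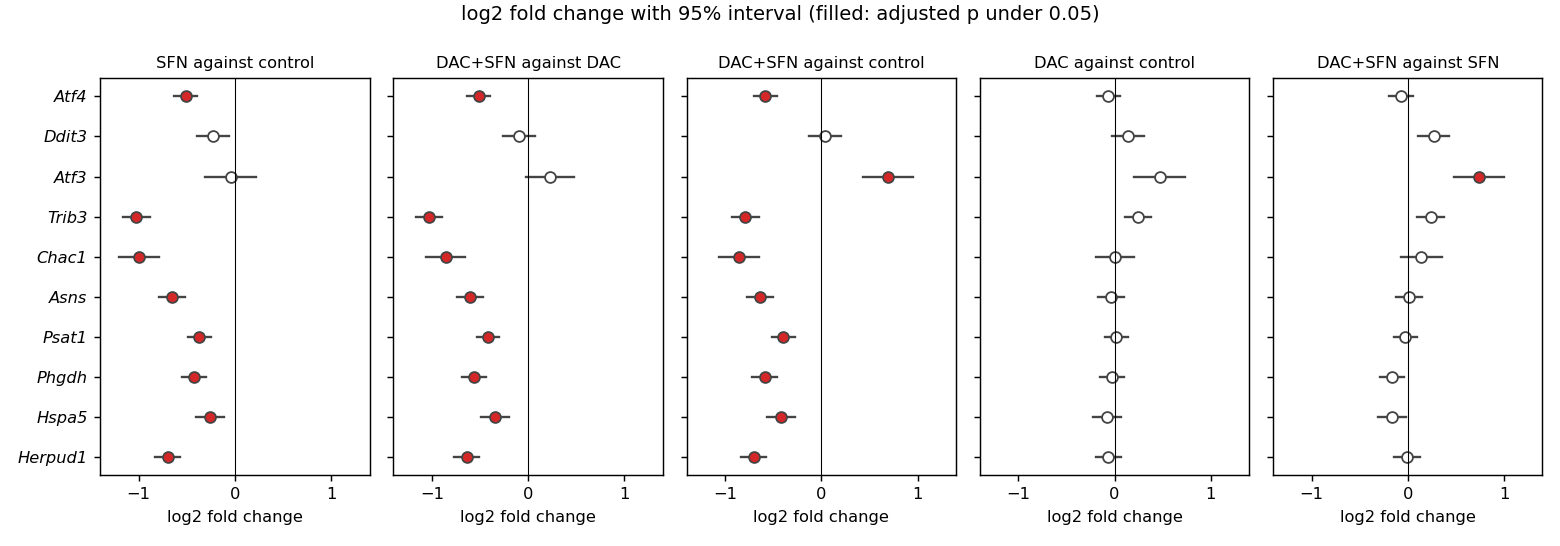
Log2 fold changes (horizontal axes) of the 10 genes in 5 comparisons, with lines for the 95% interval and filled points for an adjusted p under 0.05. The 3 panels in which SFN or DAC+SFN is compared with a group without SFN hold 8 filled points to the left of 0 each, and Atf3 is filled on the right in the panels of DAC+SFN against control and against SFN.

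The effect of SFN on cells that also received DAC was read from DAC+SFN compared to DAC, which compares no library of the SFN or control groups, although the spread was estimated over all 12 libraries. In it 8 of the 10 genes passed, all lower, where 6.6% of all genes were lower, 9.55% higher and 0.928% changed by more than 2-fold. They were the same 8 genes as with SFN compared to control, and the ranges of the 8 did not overlap (18.2% of all genes). Trib3 fell by 1.03 on the log2 scale (SE 0.065, adjusted p = 6.17e-07, rank 1 of 11638) and was the only one of the 10 past 2-fold. Chac1 fell by 0.86, Herpud1 by 0.64, Asns by 0.61, Phgdh by 0.56, Atf4 by 0.52 and Psat1 by 0.42, with adjusted p-values from 3.08e-05 to 2.84e-04. Hspa5 fell by 0.35 (adjusted p = 0.0037), a call that was lost without replicate 1 (0.121). Ddit3 (-0.097, 95% interval -0.26 to 0.067) and Atf3 (0.23, 95% interval -0.027 to 0.48) did not pass.

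Whether SFN acted differently in the presence of DAC was tested by the interaction, and 0 of the 10 genes passed in edgeR, 0 at an unadjusted p under 0.05 and 0 in DESeq2. Over all genes 0% passed. The intervals were narrow for Atf4 (log2 interaction -0.0035, 95% interval -0.17 to 0.17), Trib3 (-0.0053, -0.20 to 0.19) and Asns (0.042, -0.15 to 0.23). They were wider for Chac1 (0.14, -0.15 to 0.43) and Atf3 (0.27, -0.098 to 0.64), for which a difference of that size was not detectable.

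**Figure D3:**
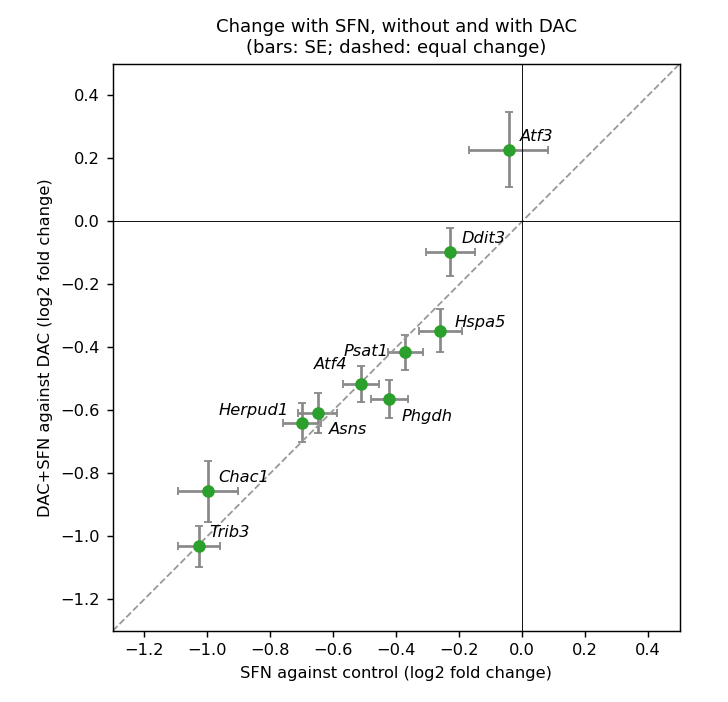
Log2 fold change of SFN against control (horizontal axis) and of DAC+SFN against DAC (vertical axis) for the 10 genes, with bars for the SE and a dashed line of equal change. The genes lie near the line from Trib3 at -1.03 on both axes to Hspa5, while Chac1, Ddit3 and Atf3 lie above it and Phgdh, at -0.42 and -0.56, lies below it.

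In the model of all 12 libraries, only Atf3 passed the test in DAC+SFN compared to SFN. It was higher by 0.74 ± 0.12 on the log2 scale, with 16.0, 21.1 and 17.7 CPM against 7.90, 14.5 and 10.9 CPM, and the ranges did not overlap (adjusted p = 0.0223, rank 8 of 11638). Over all genes 0.67% were lower, 0.937% higher, 0.112% changed by more than 2-fold and 12.1% did not overlap. The call on Atf3 was lost without SFN 1 (adjusted p = 0.142), SFN 3 (0.217), DAC+SFN 1 (0.119), replicate 1 (0.557) or replicate 2 (0.0552). Ddit3 (0.27 ± 0.078, adjusted p = 0.0870) and Trib3 (0.24 ± 0.067, adjusted p = 0.0790) were higher in each of 3 replicate numbers and did not pass. Phgdh (-0.17 ± 0.059, adjusted p = 0.156) and Hspa5 (-0.16 ± 0.068, adjusted p = 0.223) were lower in each of 3 and did not pass. With only the groups compared in the model, Ddit3 (adjusted p = 0.00576), Trib3 (0.0355), Phgdh (0.0320) and Hspa5 (0.0402) passed.

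The replicate number moved many of these genes. Of the 10, 7 differed between replicate numbers in the same model, where 33.9% of all genes did. In replicate 2 compared to the mean of replicates 1 and 3, Trib3 was lower by -0.40 on the log2 scale, Chac1 by -0.31, Asns by -0.23 and Atf4 by -0.22, whereas Atf3 was higher by 0.48 and Ddit3 by 0.24. Herpud1 also differed (adjusted p = 0.0110). Psat1 (adjusted p = 0.130), Phgdh (0.0609) and Hspa5 (0.701) did not pass. For Trib3, all 4 libraries of replicate 2 were the lowest of their group. The library numbers in the labels follow the replicate number, so a batch in library order and the replicate number cannot be told apart.

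Several calls depended on the block on the replicate number, the term for that number in the model. Without the block, the log2 fold changes were much the same, at -0.51 for Atf4 and -0.98 for Chac1 with SFN, but 2 of the 10 genes, Trib3 and Herpud1, passed with SFN in place of 8. The other 6 had adjusted p-values of 0.0559 (Asns and Chac1), 0.0632 (Psat1), 0.0670 (Phgdh), 0.0920 (Atf4) and 0.155 (Hspa5). In DAC+SFN compared to DAC, 3 passed in place of 8, and in DAC+SFN compared to control 8 in place of 9, without Atf3 (0.0922).

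**Figure D4:**
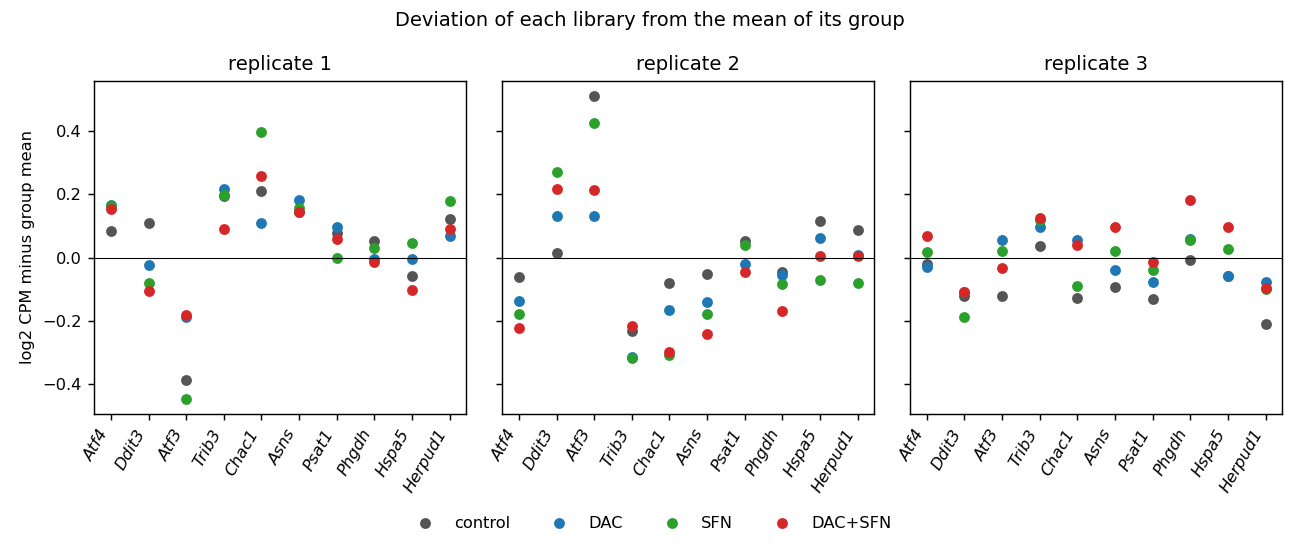
Deviation of log2 CPM in each library from the mean of its group (vertical axis) for the 10 genes, in 3 panels for the replicate numbers, with colours for the groups. In the panel of replicate 2, Trib3, Chac1, Asns and Atf4 lie below 0 in all 4 groups, and Atf3 and Ddit3 above 0.

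Other genes of the pathway were read from lists that held none of the 10 genes. The lists, like the 10 genes, were chosen with earlier results of these data known, so they are not an independent test. Over all genes, 5.65% were lower and 8.27% higher with SFN, and 14.7% and 17% with DAC+SFN compared to control. In DAC+SFN compared to DAC the shares were 6.6% and 9.55%. In 4 lists of ATF4 targets with 47 genes, 44 passed the filter, and with SFN 27 of them fell and 1 rose, with a median log2 fold change of -0.32. With DAC 0 passed in edgeR, 6 had an unadjusted p under 0.05, and DESeq2 called 0 lower. With DAC+SFN compared to control 28 fell and 5 rose, and compared to DAC 30 fell and 2 rose. Without the block on the replicate number the genes that fell were 1 with SFN, 14 with DAC+SFN compared to control and 1 compared to DAC. Without replicate 1, 12 fell in DAC+SFN compared to DAC. With only the groups compared in the model, 18 fell in that comparison, 2 with DAC and 1 in DAC+SFN compared to SFN. Without a filter on low counts 1 fell with DAC.

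Of 10 enzymes of amino acid synthesis and one-carbon metabolism, 6 fell with SFN. Shmt2, a mitochondrial enzyme that splits serine to glycine, stood at 399, 433 and 372 CPM in control and at 268, 254 and 259 CPM with SFN, with no overlap (log2 fold change -0.62 ± 0.061, adjusted p = 1.78e-05). Psph, the last enzyme of serine synthesis, fell by 0.77 (adjusted p = 5.20e-05) and Gpt2, an alanine aminotransferase, by 0.46 (adjusted p = 1.39e-04). With DAC+SFN the counts were 6 lower and 2 higher, the latter being Cbs and Got1, of which Got1 was chosen for mention after its values were seen. Cbs, with 51 to 57 reads in control, lost its call without control 2 (adjusted p = 0.0503) or replicate 2 (0.111).

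Of 10 amino acid transporters, 5 fell and 1 rose with SFN. Slc1a4, which carries neutral amino acids, fell by 0.41 (adjusted p = 2.88e-04) and Slc38a2, a sodium-coupled carrier of neutral amino acids, by 0.36 (adjusted p = 4.51e-04). Slc7a11, the cystine carrier that is a target of both ATF4 and NRF2, moved the other way. It stood at 103, 79.6 and 87.5 CPM in control, at 176, 244 and 145 CPM with SFN and at 235, 258 and 186 CPM with DAC+SFN, above every control library. Its log2 fold change was 1.06 ± 0.16 with SFN (adjusted p = 5.31e-04) and 1.32 ± 0.16 with DAC+SFN (adjusted p = 3.84e-05). Its call with SFN was lost without the block on the replicate number (adjusted p = 0.0559). Of 6 NRF2 targets, the genes of antioxidant defence that SFN is known to raise, 5 rose with SFN and 6 with DAC+SFN. With DAC 0 passed in edgeR (2 at an unadjusted p under 0.05). Nqo1 stood at 7.45, 8.78 and 9.04 CPM in control against 33.2, 33.5 and 35.2 CPM with SFN (2.01 ± 0.14, adjusted p = 1.16e-06). Without the block, the calls of Srxn1 (adjusted p = 0.0769) and Txnrd1 (0.120) with SFN were lost. That of Hmox1 with DAC+SFN was lost too (0.0605).

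The tRNA synthetases, which charge tRNAs with amino acids, were the list with the largest share lower, 10 of 12 with SFN and 10 of 12 with DAC+SFN. Their changes were small, with a median log2 fold change of -0.30 with SFN. Cars stood at 168, 157 and 154 CPM in control and at 127, 99.2 and 111 CPM with SFN (-0.51 ± 0.064, adjusted p = 1.16e-04), with no overlap, and Iars (-0.40) and Aars (-0.35) followed.

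Of 15 stress regulators and secreted factors under ATF4, 12 passed the filter, and 6 fell with SFN. Ndrg1, a growth regulator that responds to hypoxia and stress, stood at 91.3, 51.3 and 79.1 CPM in control and at 48.9, 30.3 and 46.1 CPM with SFN (log2 fold change -0.81 ± 0.078, adjusted p = 1.70e-05). Its control library of replicate 2 was close to the SFN libraries of replicates 1 and 3. Vldlr, a lipoprotein receptor, fell by 1.62 on the log2 scale (adjusted p = 7.29e-05) from low levels of 4.73 to 8.65 CPM in control, and Nupr1, a small stress-induced chromatin protein, fell by 1.13 (adjusted p = 2.71e-04). With DAC+SFN 6 fell and 2 rose, Sesn2, an mTORC1 inhibitor (0.43, adjusted p = 0.00213), and Ppp1r15a, the phosphatase subunit that reverses eIF2α phosphorylation (0.45, adjusted p = 0.0120). The call on Ppp1r15a was lost without replicate 1 (adjusted p = 0.129) or replicate 2 (0.162). Without the block on the replicate number, the calls on Sesn2 (adjusted p = 0.0578) and Ppp1r15a (0.105) were lost.

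Upstream of ATF4 fewer genes changed. The list of 15 genes held eIF2 kinases, eIF2 and eIF2B subunits, the phosphatase subunit Ppp1r15b, Impact and Gcn1l1. With SFN 2 of them fell, Eif2s2 (-0.27, adjusted p = 0.0171) and Ppp1r15b (-0.20, adjusted p = 0.0189). The kinase PERK, Eif2ak3, stood at -0.17 (adjusted p = 0.0678). Both calls were lost without replicate 1 (0.151 and 0.116) and without replicate 2 (0.184 and 0.162).

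Of 12 sensors and transcription factors of the unfolded protein response, 2 fell and 1 rose with SFN, and the pair of the IRE1 branch went in opposite directions. Xbp1, whose mRNA IRE1 splices to make an active factor, stood at 181, 167 and 164 CPM in control, at 139, 116 and 120 CPM with SFN and at 111, 124 and 125 CPM with DAC+SFN. Ranges did not overlap with control, and the log2 fold changes were -0.45 ± 0.072 (adjusted p = 8.65e-04) and -0.51 ± 0.072 (adjusted p = 1.44e-04). Ern1, which encodes IRE1α, stood at 18.4, 23.6 and 16.6 CPM in control, at 25.1, 31.9 and 20.4 CPM with SFN and at 34.3, 43.5 and 26.4 CPM with DAC+SFN. Its log2 fold change was 0.40 ± 0.078 with SFN (adjusted p = 0.0037), 0.82 ± 0.078 with DAC+SFN (adjusted p = 5.13e-06) and 0.43 ± 0.076 in DAC+SFN compared to SFN (adjusted p = 0.0243). Its call with SFN was lost without replicate 1 (0.0634) or replicate 2 (0.0955). Counts per gene do not tell spliced from unspliced Xbp1. The second gene that fell was Nfyc, a subunit of the CCAAT-binding factor NF-Y (-0.32, adjusted p = 0.0148), whose call with SFN was lost without replicate 1 (0.0600) or replicate 2 (0.249). Without the block on the replicate number, the calls with SFN of Xbp1 (adjusted p = 0.0559), Ern1 (0.428) and Nfyc (0.130) were lost. With DAC+SFN, Mbtps1, a protease that activates ATF6, fell too (-0.16, adjusted p = 0.0420), a call lost without replicate 1 (0.0708), replicate 2 (0.225) or replicate 3 (0.0844) and without the block (0.135), and Creb3l2 rose (0.28, adjusted p = 0.00692), the latter chosen for mention after its values were seen.

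Of 20 ER chaperones and folding enzymes, 9 fell with SFN, 13 with DAC+SFN compared to control and 8 with DAC+SFN compared to DAC, and 0 rose. Manf, a secreted ER stress protein, stood at 192, 236 and 194 CPM in control, at 154, 163 and 158 CPM with SFN and at 138, 148 and 143 CPM with DAC+SFN. Every treated library was below every control library, with a log2 fold change of -0.38 ± 0.059 with SFN (adjusted p = 6.44e-04) and -0.54 ± 0.060 with DAC+SFN (adjusted p = 2.04e-05). The count with SFN depended on single libraries. It was 1 without control 2 and 1 without SFN 2, 4 without control 1 or without SFN 3, 2 without replicate 1 or without replicate 2, and 0 without the block on the replicate number. In DAC+SFN compared to DAC it was 5 without DAC 1, 2 without DAC+SFN 1, 0 without replicate 1, 5 without replicate 2 and 0 without the block. With only the groups compared in the model it was 3. In that setting 4 chaperones fell with DAC and 5 in DAC+SFN compared to SFN, where the model of all 12 libraries gave 0. Of 16 genes of ER-associated degradation past the filter, 1 fell with SFN, Sel1l, the partner of the ubiquitin ligase HRD1 (-0.25, adjusted p = 0.00989). Its call was lost without replicate 1 (0.0829) or replicate 2 (0.185). With DAC+SFN 4 of the 16 fell and 3 rose, where 14.7% of all genes were lower and 17% higher. Those that fell were Derl2, Edem1, Sel1l and Vimp (log2 fold changes from -0.26 to -0.17). The 4 that fell lost their calls without replicate 1 (adjusted p = 0.0857 to 0.188).

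**Figure D5:**
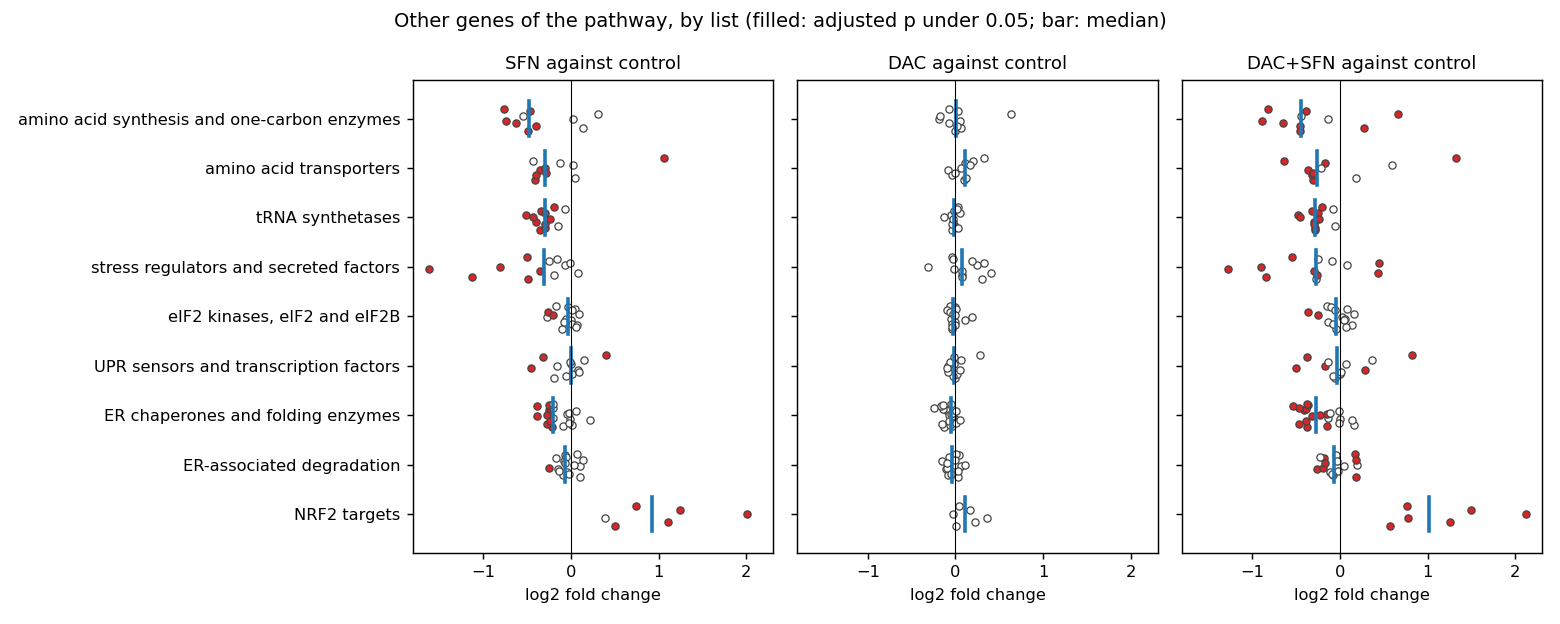
Log2 fold change (horizontal axes) of each gene of 9 lists in 3 comparisons with control, with 1 point per gene, filled at an adjusted p under 0.05, and a blue bar for the median. Filled points lie mostly to the left of 0 in the ATF4 target and chaperone lists with SFN and with DAC+SFN, to the right of 0 in the NRF2 targets, and none is filled with DAC.

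The genes whose levels followed those of Atf4, Ddit3 and Hspa5 most closely were found by Pearson correlation of log2 CPM over the 12 libraries after removal of the mean of each replicate number. The libraries share the treatments, so this describes the likeness only. For Atf4 they were Mthfd2, a one-carbon enzyme of mitochondria (r = 0.990), Asns (0.990) and Insig1, an ER protein that restrains sterol synthesis (0.987). For Hspa5 they included Ip6k3, an inositol phosphate kinase (0.990), and Tsc22d3, a glucocorticoid-induced leucine zipper protein (0.988). For Ddit3 the values were lower, with Slit2, a guidance ligand (0.956), Ap3m2, a subunit of the AP-3 adaptor (0.944), and Gm6548 (0.917).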

How the data were processed

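RNA sequencing was carried out on 12 libraries of B16F10 cells, 3 for each of 4 groups taken from the labels. Per the labels and the study's methods, the authors prepared stranded mRNA libraries, removed adapters and low-quality bases with Trimmomatic 0.38, aligned to mm10 by TopHat2 2.1.1, kept uniquely aligned reads and counted them with HTSeq. They deposited raw read counts per gene. The gene annotation and strand setting used for counting are not given in the sources used here, so reads of overlapping genes on opposite strands may not be separated, and for genes with near-identical copies unique alignment can lower counts.

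Counts were analysed here with edgeR 4.0.16 in R 4.3.3. A gene was kept if 3 or more libraries reached 1 CPM, libraries were scaled by TMM, and all 12 entered 1 quasi-likelihood model (glmQLFTest, two-sided) with group and replicate number. The study's methods correct for a batch without naming it. Libraries of the same replicate number deviated together from their group means in all 18 pairs across groups (correlation 0.270 to 0.732 over genes, mean 0.544), and the number comes from the sample titles. P-values were adjusted by the Benjamini-Hochberg method over 11638 genes, and 0.05 was the threshold. Standard errors were derived from each log2 fold change and its F statistic. No pair of libraries was identical, and the chi-square per gene between replicates was 13.6 to 37.5. The fit was tested on simulated data.

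The members and the gene lists were chosen with earlier results of these data known. The text names all 10 members, up to 3 genes of each list with the lowest adjusted p in each comparison with control, and the 3 genes most alike to Atf4, Ddit3 and Hspa5. Some genes that this rule names are not reported here. Exon lengths and positions come from GENCODE M21 and promoters from RefSeq. Alternatives were DESeq2 1.42.0, its size factors, no filter, at least 10 counts in every library, a robust fit, no replicate block, only the groups compared, and leaving out each library and each replicate number. Their use on the list counts and list genes was added after seeing the data.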

Additional observations from a re-analysis of the deposited data

How the results depend on the processing

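Among the members, read counts were lowest for Atf3, at 168 to 440 per library, and no test of depth as a limit was made. Calls moved more without the replicate block, with only the groups compared or without a filter than with DESeq2's size factors. Every member called in a comparison kept its direction under each alternative that was run.

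Without the replicate block, members past the test numbered 2 with SFN, 3 in DAC+SFN compared to DAC and 0 in DAC+SFN compared to SFN. All genes past the test then numbered 23 with SFN and 0 with DAC. They numbered 1201 in DAC+SFN compared to control, 20 compared to DAC and 0 compared to SFN. With only the groups compared in the model, members numbered 2 with DAC and 5 in DAC+SFN compared to SFN, and all genes 663 with DAC, 748 in DAC+SFN compared to DAC and 1267 compared to SFN. Without a filter, 1 member passed with DAC, and all genes numbered 169 with DAC, 486 in DAC+SFN compared to SFN and 1 in the interaction. DESeq2 called 83 genes with DAC and 410 in DAC+SFN compared to SFN. The cause of these differences was not tested. Leaving out libraries or replicate numbers gave 429 to 1799 genes with SFN, 0 to 28 with DAC, 1471 to 4199 in DAC+SFN compared to control, 245 to 2402 compared to DAC and 0 to 703 compared to SFN, with 0 to 2 members in the last.

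Log2 values changed sign only for members that did not pass. For Chac1 with DAC the value was -0.0012 in DESeq2, -0.0015 with its size factors and -0.0041 without a filter, and for Asns in DAC+SFN compared to SFN it was -0.0062 without a filter. When libraries or replicate numbers were left out, the values with DAC ranged from -0.095 to 0.035 for Asns, from -0.098 to 0.089 for Chac1, from -0.078 to 0.0052 for Phgdh and from -0.027 to 0.058 for Psat1. They ranged from -0.13 to 0.11 for Atf3 with SFN and from -0.071 to 0.15 for Ddit3 in DAC+SFN compared to control. In DAC+SFN compared to SFN they ranged from -0.066 to 0.066 for Asns, from -0.067 to 0.039 for Herpud1 and from -0.064 to 0.016 for Psat1. The interaction ranged from -0.033 to 0.10 for Asns, from -0.063 to 0.043 for Atf4, from -0.025 to 0.12 for Herpud1, from -0.16 to 0.014 for Hspa5, from -0.084 to 0.0032 for Psat1 and from -0.096 to 0.061 for Trib3.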
